A study of Mus musculus with 16 samples.

Results

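CXC chemokines are small secreted proteins that guide leukocytes. The 7 genes described here, Cxcl1, Cxcl2, Cxcl3, Cxcl9, Cxcl10, Cxcl11 and Cxcl16, were taken from the 55359 genes of the count files by Ensembl gene identifier, whatever their values. The libraries come from MPI-2 cells, a wild-type mouse line of alveolar-like macrophages cultured with GM-CSF, and polyadenylated RNA was sequenced. There were 4 groups of 4 libraries: cells exposed to Mycobacterium abscessus for 1 day, uninfected cells of day 1, cells exposed for 5 days, and uninfected cells of day 5. Mycobacterium abscessus is a nontuberculous mycobacterium that can survive inside macrophages. The labels name neither the strain nor the dose, nor how many cells took up bacteria. Replicates are labelled as biological but all come from this 1 line, so p-values measure the spread between its cultures.

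Cxcl1, Cxcl2 and Cxcl3 bind the receptor Cxcr2 and call in neutrophils, and their genes are classic targets of the transcription factor NF-kB, which Toll-like receptors and interleukin-1 activate. Cxcl9, Cxcl10 and Cxcl11 bind Cxcr3 on activated T and NK cells and are known as interferon-induced genes, with Cxcl10 responding to type I interferon and NF-kB and Cxcl9 chiefly to interferon gamma. Cxcl16 is made as a membrane protein, is shed by metalloproteinases and binds Cxcr6.

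RefSeq upstream sequence, of the GRCm38.p6 assembly and so of an older build than the GRCm39 of the counts, was at hand for 5 of the 7 members, Cxcl1, Cxcl2, Cxcl3, Cxcl9 and Cxcl10. In the 250 bases before the start, 3 motifs were searched on both strands: the kappa-B motif of NF-kB, the interferon-stimulated response element as GAAANNGAAA, and the gamma-activated site as TTCNNNGAA. Of 32851 mouse promoter windows of that length, 3.9%, 2.98% and 7.02% hold them, in that order. The 3 neutrophil-attracting members share the same run of 11 bases, which holds a kappa-B match on each strand, the 2 matches overlapping. They are shown because they carry like motifs while their transcript levels differed widely. The capitals mark the run, which starts 71 bases before the start of Cxcl1, 97 before that of Cxcl2 and 73 before that of Cxcl3. Each stretch shown is 61 bases long and on the plus strand, at chr5:90891149-90891209 for Cxcl1, chr5:90903777-90903837 for Cxcl2 and chr5:90786003-90786063 for Cxcl3.
Cxcl1: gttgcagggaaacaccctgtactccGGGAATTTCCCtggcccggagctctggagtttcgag
Cxcl2: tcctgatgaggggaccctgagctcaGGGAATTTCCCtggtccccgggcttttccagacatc
Cxcl3: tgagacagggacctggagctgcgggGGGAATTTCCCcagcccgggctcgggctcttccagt

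Of the 5 members searched, Cxcl10 alone held both kinds of motif. Its 250 bases (chr5:92348890-92349139, minus strand) carry, in capitals and in this order, the response element starting 213 bases before the start and kappa-B matches starting 159 and 103 bases before it. The Cxcl9 window held none of the 3 motifs and no window held the gamma-activated site, which says only that those letters are not in these windows.
Cxcl10: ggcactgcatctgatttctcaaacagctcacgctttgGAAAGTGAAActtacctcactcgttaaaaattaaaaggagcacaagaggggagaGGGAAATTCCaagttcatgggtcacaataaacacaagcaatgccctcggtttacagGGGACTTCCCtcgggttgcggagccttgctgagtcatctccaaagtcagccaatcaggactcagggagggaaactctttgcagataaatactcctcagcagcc

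Library totals lay between 46154875 and 81995629 counts. A test needs enough reads, and 4 of the 7 members, Cxcl2, Cxcl3, Cxcl9 and Cxcl10, were among the 17190 genes tested with edgeR's quasi-likelihood test. Cxcl1, Cxcl11 and Cxcl16 were not tested. Adjusted p-values below are Benjamini-Hochberg values over all 17190 genes, and a gene is said to rise or fall only at an adjusted p under 0.05. CPM scale the counts of a gene to the size of its library. Markers of alveolar macrophages (8 of 8) and of macrophages in general (6 of 6) passed the same filter. So did those of neutrophils (6 of 6) and endothelium (3 of 3), so passing it does not tell cell types apart. These are bulk samples, so fewer cells of a kind and less RNA per cell cannot be told apart. For Cxcl2 and Cxcl10 the exposed day 5 libraries spread more than those of the other groups. Replicates 2 and 3 of that group carry a different library code series, and without them the log2 fold change of exposed against uninfected day 5 cells was 6.32 for Cxcl2 and 5.94 for Cxcl10, against 6.63 and 5.60 with them.

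At day 1, Cxcl10 and Cxcl9 rose on exposure while Cxcl2 and Cxcl3 did not pass the test in the fit of all 16 libraries. This split depends on the fit. With the day 1 libraries alone, Cxcl2 and Cxcl10 were called higher and Cxcl9 was not tested. Of the 4 members tested at day 1 in the fit of all 16 libraries, 2 were called higher and 0 lower, where 13.4% of all tested genes were called higher and 10.5% lower. At day 5, Cxcl2 and Cxcl10 were called higher, where 28.6% of all tested genes were called higher and 28.4% lower. Cxcl3 and Cxcl9 were called higher there too, but they had passed the count filter through the exposed day 5 libraries alone, so that a high level in that group was a condition of being tested. No count over the tested members is therefore read against the background at day 5. Nor is the count at day 1, since Cxcl3 and Cxcl9 entered it only through their exposed day 5 values.

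**Figure D1:**
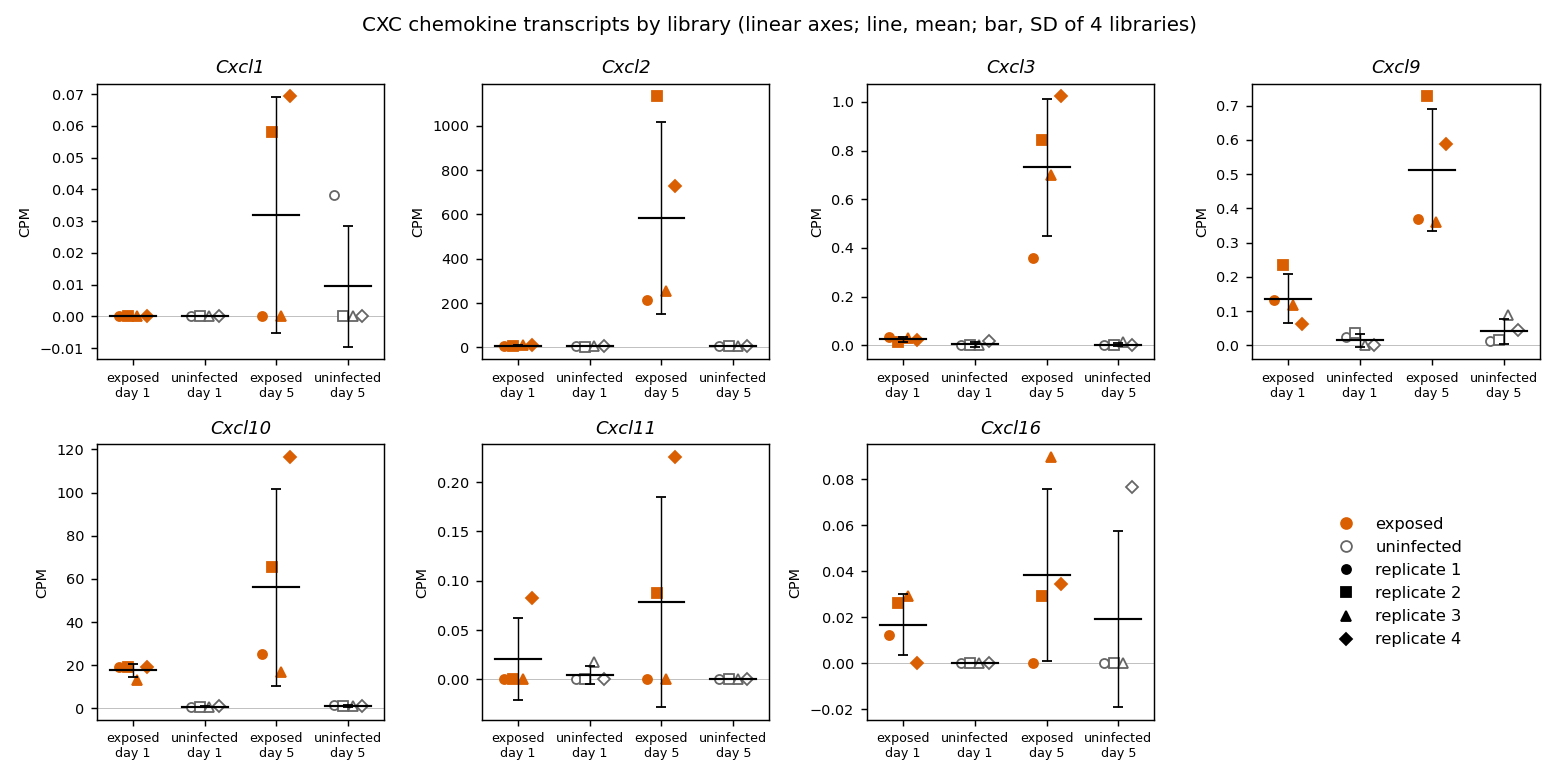
Each panel plots CPM on a linear axis for 1 CXC chemokine in the 16 libraries, by group, with the marker shape giving the replicate, the line the mean and the bar the SD of 4 libraries. Exposed day 5 cells hold the highest libraries of each gene, and the axes differ by orders of magnitude, with Cxcl2 reaching 1133 CPM and Cxcl1 0.0694 CPM.

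Cxcl2 (ENSMUSG00000058427.11), the neutrophil attractant also known as MIP-2, lies with the other members bar Cxcl16 on chromosome 5. At day 1 it had 7.59, 6.92, 9.03 and 10.5 CPM in exposed cells, against 5.54, 4.08, 6.48 and 5.03 CPM in uninfected cells. The exposed libraries all lay above the uninfected ones. Its log2 fold change of 0.69 ± 0.40 (SE) did not pass the test (edgeR adjusted p = 0.232). In a fit to the day 1 libraries alone it did (0.69, edgeR adjusted p = 0.00097).

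At day 5 Cxcl2 had 216, 1133, 256 and 727 CPM in exposed cells, against 5.41, 5.51, 5.94 and 6.77 CPM in uninfected cells. It averaged 583 ± 434 CPM in exposed cells and 5.91 ± 0.620 CPM in uninfected cells (SD, n = 4 each). Replicates 2 and 4 were the high exposed libraries and replicates 1 and 3 the low ones, and even the lowest exposed library stood far above all the uninfected ones. The log2 fold change was 6.63 ± 0.48 (SE, edgeR adjusted p = 4.82e-09).

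Cxcl3 (ENSMUSG00000029379.11), a close paralog of Cxcl2 with the same receptor, stayed far below it in exposed day 5 cells. At day 1 it had 3, 1, 2 and 1 counts in the exposed libraries, against 0, 0, 0 and 1 counts in the uninfected ones. Its log2 fold change there was 2.28 ± 1.05 (SE) and did not pass the test (edgeR adjusted p = 0.122).

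At day 5 Cxcl3 had 0.357, 0.845, 0.700 and 1.02 CPM in exposed cells, against 1 count in all 4 uninfected libraries. It rose there in all 4 exposed libraries (log2 fold change 7.11 ± 0.69 (SE), edgeR adjusted p = 5.46e-08). The fitted value rests on 182 counts in exposed cells against 1 in uninfected cells, a ratio of 205 with an exact 95% Poisson interval of 36.4 to 8146 that covers counting error only. The transcripts of Cxcl2 and Cxcl3 share an identical stretch of 157 bases. Cxcl3 counts were 0.165%, 0.0745%, 0.273% and 0.141% of the Cxcl2 counts in exposed day 5 replicates 1 to 4. The rule by which reads common to both genes were assigned is not known here, so the Cxcl3 values are uncertain.

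Cxcl1 (ENSMUSG00000029380.12), known as KC and a major neutrophil attractant of mouse tissue, had almost no counts. It had 0 counts in all 4 exposed day 1 libraries and all 4 uninfected day 1 libraries, which allows up to 0.0108 CPM over the exposed group and 0.0111 CPM over the uninfected group. At day 5 it had 0, 4, 0 and 4 counts in exposed cells, against 3, 0, 0 and 0 counts in uninfected cells. The ratio at day 5 was 3.00 (exact 95% Poisson interval 0.721 to 17.6), which includes equal levels.

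Cxcl10 (ENSMUSG00000034855.14), known as IP-10, is the ligand of Cxcr3 that macrophages make in response to type I interferon. At day 1 it had 19.3, 19.3, 13.2 and 19.3 CPM in exposed cells, against 0.816, 0.572, 0.905 and 1.30 CPM in uninfected cells. Exposed and uninfected libraries were far apart, and exposed replicate 3 was the low one. The log2 fold change was 4.33 ± 0.52 (SE, edgeR adjusted p = 1.68e-05).

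At day 5 Cxcl10 had 25.5, 65.5, 16.8 and 117 CPM in exposed cells, against 1.54, 1.09, 0.978 and 0.996 CPM in uninfected cells. Here too replicates 2 and 4 were the high exposed libraries and all 4 exposed libraries lay above the uninfected ones. It averaged 56.1 ± 45.6 CPM in exposed cells and 1.15 ± 0.263 CPM in uninfected cells (SD, n = 4 each). The log2 fold change was 5.60 ± 0.52 (SE, edgeR adjusted p = 1.18e-07).

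Cxcl9 (ENSMUSG00000029417.10), the Cxcr3 ligand known as MIG, rose at both days and stayed at a low level. At day 1 it had 0.133, 0.235, 0.117 and 0.0617 CPM in exposed cells, against 0.0251, 0.0373, 0 and 0 CPM in uninfected cells. The day 5 values were 0.371, 0.728, 0.359 and 0.590 CPM in exposed cells, against 0.0127, 0.0155, 0.0889 and 0.0460 CPM in uninfected cells. The groups did not overlap at either day. Log2 fold changes were 2.84 ± 0.73 at day 1 and 3.57 ± 0.58 at day 5 (SE, edgeR adjusted p = 0.00821 and 3.03e-05). These rest on few reads, 40 counts in exposed cells against 5 in uninfected cells at day 1 and 131 against 12 at day 5. The day 1 call was lost with replicates 1 and 2 alone (edgeR adjusted p = 0.0751) and with replicates 3 and 4 alone (0.0967).

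Cxcl11 (ENSMUSG00000060183.7), the third Cxcr3 ligand, which RefSeq annotates as a transcribed pseudogene in this mouse assembly, was found at a few counts. At day 1 it had 4 counts in the exposed libraries, all in replicate 4, against 1 count in the uninfected ones. At day 5 it had 0, 6, 0 and 13 counts in exposed cells, against 0 in all 4 uninfected libraries. The exposed counts lay in replicates 2 and 4, the other exposed libraries were at 0 like the uninfected ones, and no fold is given. Its transcript shares 49 identical bases with that of Cxcl3.

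Cxcl16 (ENSMUSG00000018920.12) lies on chromosome 11. It had 5 counts in all exposed day 1 libraries, against 0 in the uninfected ones. At day 5 it had 0, 2, 5 and 2 counts in exposed cells, against 0, 0, 0 and 5 counts in uninfected cells. The groups overlapped at both days, and the difference was not tested.

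**Figure D2:**
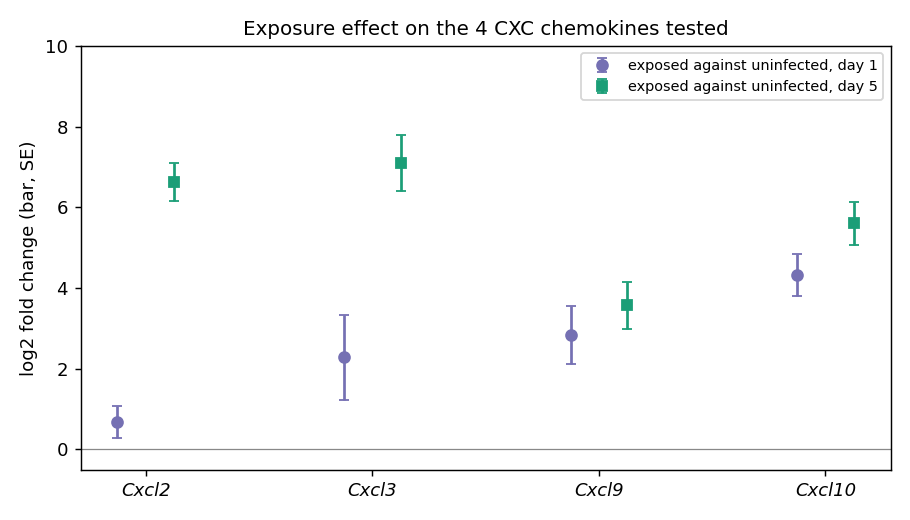
The plot gives the log2 fold change of exposed against uninfected cells, with its SE, for the 4 CXC chemokines tested, circles for day 1 and squares for day 5. Cxcl2 stands at 0.69 at day 1 and 6.63 at day 5, while Cxcl10 stands at 4.33 and 5.60.

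The interaction term tested whether the exposure effect of each member differed between days. Cxcl2 was called higher among the 4 members, with an effect 5.94 ± 0.59 larger at day 5 on the log2 scale (SE, edgeR adjusted p = 1.62e-06). The background was 16.4% of genes called higher and 19.5% called lower. For Cxcl10 the effect changed by 1.27 ± 0.70 (SE, edgeR adjusted p = 0.175), for Cxcl9 by 0.73 ± 1.17 (0.668) and for Cxcl3 by 4.83 ± 2.32 (0.114), none of which passed the test. DESeq2 also called Cxcl3 (5.01, DESeq2 adjusted p = 0.00987). Cxcl3 and Cxcl9 were tested only because of their exposed day 5 values, and that group enters this term. Their values here, and the DESeq2 call, are therefore not read as support for a change between days. A difference in the effect of Cxcl10 or Cxcl9 between days was thus not detected, which does not show that their effects at the 2 days were alike.

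Within exposed cells, day 5 was set against day 1. Cxcl2 and Cxcl10 were called higher, where 25.6% of all genes were called higher and 25.2% lower. So were Cxcl3 and Cxcl9, which were tested only because of their exposed day 5 values. Cxcl2 changed most, by 6.10 ± 0.46 on the log2 scale (SE, edgeR adjusted p = 2.32e-08), and its libraries at the 2 days did not overlap. Cxcl3 rose by 4.76 ± 0.54 (edgeR adjusted p = 7.41e-07) and Cxcl9 by 1.85 ± 0.50 (0.00425), also without overlap. Cxcl10 rose by 1.66 ± 0.42 (0.00353), but replicate 3 of day 5 with 16.8 CPM lay below 3 of the 4 day 1 libraries. Within uninfected cells 0 of the 4 members were called in either direction, where 10.8% of all genes were called higher and 8.91% lower at day 5. DESeq2 called 0 as well, and 0 had an unadjusted p under 0.05 with edgeR. Cxcl2 moved there by 0.17 ± 0.40 (SE, edgeR adjusted p = 0.814) and Cxcl10 by 0.39 ± 0.56 (0.674).

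To compare levels between genes, CPM were divided by exon length in kilobases. At day 1 Cxcl10 was the most abundant member in exposed cells, at 7.88 ± 1.36 CPM per kilobase, ahead of Cxcl2 at 4.11 ± 0.767 (SD, n = 4 each). In uninfected cells of day 1 Cxcl2 had 2.55 ± 0.484 and Cxcl10 0.399 ± 0.135 CPM per kilobase. At day 5 Cxcl2 led in exposed cells with 282 ± 210 CPM per kilobase, and Cxcl10 had 24.9 ± 20.2. In uninfected cells of day 5 Cxcl2 had 2.86 ± 0.300 and Cxcl10 0.510 ± 0.117 CPM per kilobase. Cxcl3 (0.209 ± 0.0807) and Cxcl9 (0.170 ± 0.0593) followed in exposed day 5 cells, within each other's spread, and Cxcl11, Cxcl1 and Cxcl16 lay between 0.0127 and 0.0206 CPM per kilobase.

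In each library, the ratio of Cxcl2 to Cxcl10 per kilobase does not depend on the scaling between libraries. It was 0.428, 0.391, 0.747 and 0.592 in exposed day 1 cells, against 7.39, 7.77, 7.80 and 4.21 in uninfected day 1 cells. In every exposed day 1 library Cxcl10 exceeded Cxcl2, and in every uninfected one Cxcl2 exceeded Cxcl10. It was 9.24, 18.9, 16.6 and 6.79 in exposed day 5 cells, against 3.83, 5.52, 6.62 and 7.41 in uninfected day 5 cells. Exposed day 5 cells thus had more Cxcl2 than Cxcl10 in all 4 libraries, and their range overlapped that of uninfected cells at the low end.

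On the log2 scale the ratio averaged -0.94 ± 0.43 in exposed day 1 cells and 2.72 ± 0.43 in uninfected day 1 cells (SD, n = 4 each), a difference of -3.66 ± 0.31 (SE, two-sided exact permutation p = 0.0286, the smallest that 4 against 4 allows). At day 5 it averaged 3.57 ± 0.70 in exposed cells and 2.50 ± 0.42 in uninfected cells, a difference of 1.06 ± 0.41 (exact permutation p = 0.0571). Exposed day 5 against exposed day 1 differed by 4.50 ± 0.41 (exact permutation p = 0.0286). Of these 3 comparisons, those at day 1 and between exposed days stayed under 0.05 after Benjamini-Hochberg adjustment (0.0429 each) and the day 5 one did not (0.0571). Cxcl10 made up 67.7% and Cxcl2 31.5% of the summed counts of the 7 members in exposed day 1 cells, against 14.2% and 85.4% in uninfected day 1 cells. In exposed day 5 cells Cxcl10 made up 8.54% and Cxcl2 91.3%, against 16.3% and 82.7% in uninfected day 5 cells.

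**Figure D3:**
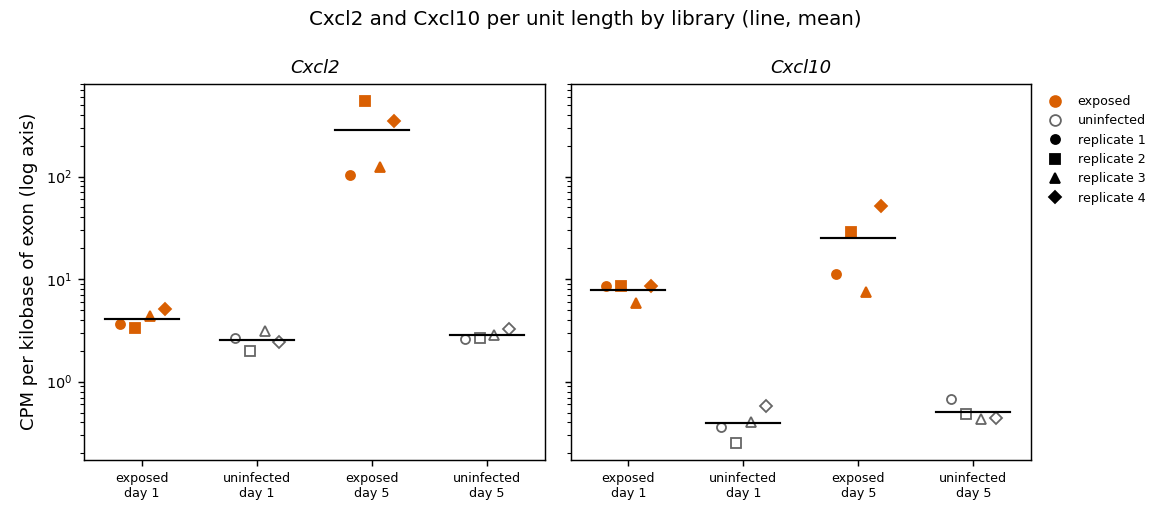
CPM per kilobase of exon, on a log axis, for Cxcl2 and Cxcl10 in the 16 libraries, with the line at the mean and the marker shape giving the replicate. Exposed day 1 cells differ from uninfected cells mainly in Cxcl10, and exposed day 5 cells in both genes, with the 4 Cxcl2 points far apart.

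The receptors that the family acts on were measured in the same libraries, and 3 of 8 receptor and decoy genes passed the filter. Cxcr2, the receptor of Cxcl1 to Cxcl3, had 186, 183, 190 and 159 CPM in exposed day 1 cells, against 216, 209, 199 and 215 CPM in uninfected day 1 cells. By day 5 the values were 108, 55.2, 62.7 and 48.9 CPM in exposed cells, against 160, 164, 178 and 164 CPM in uninfected cells. The groups did not overlap at either day. Its log2 fold change was -0.22 ± 0.17 at day 1 (SE, edgeR adjusted p = 0.360) and -1.28 ± 0.17 at day 5 (edgeR adjusted p = 4.20e-06). The effect differed between days by -1.06 ± 0.24 (edgeR adjusted p = 0.00213), a call that was lost with replicates 1 and 2 alone (edgeR adjusted p = 0.181).

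Cxcr1, a related receptor of neutrophil attractants, rose. It had 5.68, 6.40, 5.70 and 7.38 CPM in exposed day 1 cells, against 4.32, 3.99, 4.23 and 3.87 CPM in uninfected day 1 cells. Exposed cells of day 5 had 9.32, 9.92, 9.70 and 9.96 CPM, against 1.55, 2.08, 1.38 and 2.40 CPM in uninfected cells. Log2 fold changes were 0.61 ± 0.14 at day 1 and 2.40 ± 0.15 at day 5 (SE, edgeR adjusted p = 0.00435 and 1.18e-10). The effect differed between days by 1.78 ± 0.20 (edgeR adjusted p = 2.91e-06). Both groups moved, the exposed mean from 6.29 to 9.72 CPM and the uninfected mean from 4.10 down to 1.85 CPM. The day 1 call was lost with replicates 1 and 2 alone (edgeR adjusted p = 0.0935) and with replicates 3 and 4 alone (0.171).

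Cxcr4, the receptor of Cxcl12, had 69.6, 75.9, 69.2 and 56.4 CPM in exposed day 1 cells, against 89.5, 82.4, 82.5 and 80.4 CPM in uninfected day 1 cells. The day 5 levels were 113, 188, 132 and 131 CPM in exposed cells, against 62.2, 58.7, 61.6 and 70.2 CPM in uninfected cells. Exposed and uninfected libraries of Cxcr4 did not overlap at either day. The log2 fold change was -0.30 ± 0.12 at day 1 (SE, edgeR adjusted p = 0.0797) and 1.16 ± 0.12 at day 5 (edgeR adjusted p = 1.87e-07). The effect differed between days by 1.46 ± 0.17 (edgeR adjusted p = 4.45e-06). Between the days the exposed mean went from 67.8 to 140.9 CPM and the uninfected mean from 83.7 to 63.2 CPM. Cxcr3, the receptor of Cxcl9 to Cxcl11, had 15 counts in exposed and 27 in uninfected day 1 cells, then 18 in exposed and 9 in uninfected day 5 cells. Cxcr6, the Cxcl16 receptor, had 1 count in all, and Ackr1 and Ackr3, which bind chemokines without signalling through G proteins, had 0. Cxcr5, the B-cell follicle receptor, had 15 counts in exposed and 23 in uninfected day 1 cells, then 15 in exposed and 3 in uninfected day 5 cells.

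**Figure D4:**
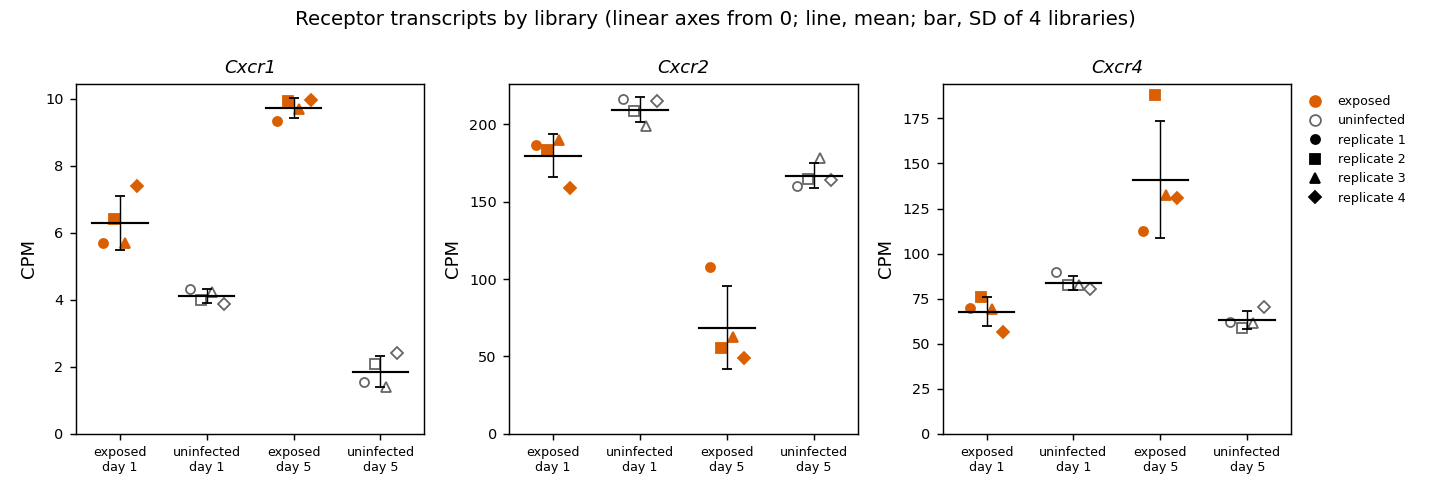
CPM of Cxcr1, Cxcr2 and Cxcr4 in the 16 libraries on linear axes from 0, with the line at the mean and the bar for the SD of 4 libraries. In exposed day 5 cells Cxcr2 lies below all uninfected day 5 libraries, while Cxcr1 and Cxcr4 lie above all of them.

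Markers of neutrophils, the cells best known for Cxcr2, were measured beside it, and all 6 passed the filter. Their summed level was 774 to 1058 CPM in exposed day 1 cells, against 316 to 409 CPM in uninfected day 1 cells. At day 5 it was 407 to 881 CPM in exposed cells, against 475 to 632 CPM in uninfected cells. S100a8, which myeloid cells also express, made up most of it, while Ly6g, a defining surface marker, averaged at most 0.374 CPM in any group. At day 1, S100a8 was called higher and Mpo and Mmp8 lower, where 13.4% of all tested genes were called higher and 10.5% lower. At day 5, 4 of the 6 were called lower and Ly6g higher, where 28.4% were called lower and 28.6% higher. Ly6g passed the filter mainly through its exposed day 5 counts, 94 against 27 in uninfected day 5 cells. A high level there was thus largely a condition of being tested, and its call is not read against the background. The part of the neutrophil markers in the Cxcr2 result was not tested.

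Of 8 other CXC ligands, only Cxcl14 passed the filter. It had 0.398, 0.451, 0.251 and 0.156 CPM in exposed day 5 cells, against 0.381, 0.807, 0.660 and 0.735 CPM in uninfected day 5 cells. Exposed and uninfected libraries overlapped, and Cxcl14 fell by 1.01 ± 0.40 on the log2 scale (SE, edgeR adjusted p = 0.0354), a call that was lost without exposed replicate 3 or 4 or uninfected replicate 2, 3 or 4 of that day (edgeR adjusted p = 0.063 to 0.103). Pf4, the platelet factor also made by macrophages, had 28 counts in exposed day 5 cells, against 2 in uninfected day 5 cells. Cxcl12, Cxcl13, Cxcl15 and Cxcl17 had at most 5 counts in a group, and Cxcl5 and Ppbp had 0 in all libraries.

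The genes through which NF-kB acts and is restrained were counted beside these chemokines. Tlr4, given here outside the naming rule, was the only gene of this path left untested, with 0 counts in all libraries. Of 26 tested genes of that path, 15 were called higher and 0 lower at day 1 and 19 higher and 1 lower at day 5, and the median log2 fold change was 0.64 and then 1.62, where the medians over all tested genes were 0.03 and 0.02. The shares over all tested genes were 13.4% higher and 10.5% lower at day 1, and 28.6% and 28.4% at day 5. The exposure effect was called larger at day 5 for 16 of the 26 genes and smaller for 1, where 16.4% and 19.5% of all tested genes were. Tnip3, an inhibitor of NF-kB that works with A20, had 16.2, 13.4, 18.0 and 17.7 CPM in exposed day 1 cells, against 1.22, 0.746, 0.977 and 1.19 CPM in uninfected ones. Day 5 levels of Tnip3 were 89.2, 144, 119 and 90.9 CPM in exposed cells, against 0.622, 0.590, 0.495 and 0.689 CPM in uninfected cells. Its log2 fold change grew between the days by 3.55 ± 0.26 (SE, edgeR adjusted p = 2.51e-08).

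Nfkbie, the inhibitor I-kappa-B epsilon, had log2 fold changes of 2.25 ± 0.12 at day 1 and 3.56 ± 0.13 at day 5 (SE, edgeR adjusted p = 1.38e-10 and 1.27e-13). Relb, a subunit of NF-kB, had 1.38 ± 0.09 and 2.72 ± 0.10 at the same days (3.16e-09 and 1.27e-13). For Tnfaip3, which encodes the brake A20, the values were 1.84 ± 0.15 and 3.86 ± 0.17 (8.54e-08 and 1.53e-12). The exposure effect of these 3 was among the 16 called larger at day 5, and they had been taken for their small p, mostly at day 5.

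Of 25 tested genes of the interferon path, 14 were called higher and 2 lower at day 1 and 18 higher and 5 lower at day 5, and the median log2 fold change was 0.37 and then 0.69. Over all tested genes 13.4% were called higher and 10.5% lower at day 1, and 28.6% and 28.4% at day 5. The path counts include Ifnb1, called higher at both days. Ifnb1 passed the count filter mainly through its exposed day 5 libraries, so its own calls are not read against these shares. Irf7, which amplifies type I interferon production, had 93.4, 96.6, 64.6 and 91.8 CPM in exposed day 1 cells, against 1.62, 1.43, 1.63 and 1.34 CPM in uninfected ones. The day 5 levels of Irf7 were 191, 393, 222 and 486 CPM in exposed cells, against 3.75, 2.73, 4.75 and 2.27 CPM in uninfected cells. Exposed replicate 3 was the low one at day 1 and exposed replicates 2 and 4 the high ones at day 5, the same libraries as for Cxcl10. The day 5 pattern is not particular to interferon genes. Exposed replicates 2 and 4 were also the high ones for Cxcl2, Tnf and Cd68, and the low ones for S100a8.

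Irf9 and Stat2, transcription factors of type I interferon signalling, had log2 fold changes of 2.48 ± 0.11 and 2.63 ± 0.17 at day 1 (SE, edgeR adjusted p = 8.85e-12 and 2.34e-09). At day 5 they were 2.26 ± 0.10 and 2.87 ± 0.17 (2.10e-12 and 9.75e-11). Usp18, which restrains the interferon receptor, was 7.53 ± 0.48 at day 1 and 8.49 ± 0.46 at day 5 (8.71e-09 and 1.58e-10). A difference between days in the effect of these 4 genes was not detected (edgeR adjusted p between 0.177 and 0.441). Outside the naming rule, and picked with their values known, Ifng, which encodes interferon gamma, had 0 counts in all libraries, and Ifnb1, which encodes interferon beta, had 56 counts in exposed and 0 in uninfected day 1 cells. At day 5 Ifnb1 had 428 counts in exposed and 13 in uninfected cells, and Ifna4, an interferon alpha gene, had 24 and 71 counts in exposed cells of days 1 and 5 and 0 in uninfected cells of both days.

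Chemokine messages are short-lived and Cxcl16 is shed, so 9 genes of shedding, protein trimming and mRNA decay were also taken, of which 8 were tested. At day 1, 2 were called higher and 2 lower, and at day 5, 2 higher and 4 lower, with medians of -0.21 and -0.28. The shares of all tested genes were again 13.4% higher and 10.5% lower at day 1, and 28.6% and 28.4% at day 5, and nothing is read from so few genes. Zfp36, the decay factor tristetraprolin, had 55.8, 53.5, 63.7 and 64.4 CPM in exposed day 5 cells, against 114, 123, 140 and 132 CPM in uninfected day 5 cells. It fell there by 1.10 ± 0.08 on the log2 scale (SE, edgeR adjusted p = 1.31e-09), and the level in uninfected cells was higher at day 5 than at day 1 (0.81 ± 0.08, edgeR adjusted p = 1.60e-06).

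Zc3h12a, the endonuclease Regnase-1 that cuts inflammatory messages, rose by 2.15 ± 0.16 at day 5 (SE, edgeR adjusted p = 2.89e-09). Adam17, a sheddase of membrane proteins, rose by 1.03 ± 0.10 at day 5 (4.19e-08) and by 0.51 ± 0.10 at day 1 (0.00107), the day 1 call being lost with replicates 3 and 4 alone (0.0746). Khsrp, a decay factor that binds AU-rich messages, fell by 0.49 ± 0.09 at day 5 (edgeR adjusted p = 8.25e-05). Cnot1, the scaffold of the deadenylase complex, fell by 0.53 ± 0.10 at day 1 (edgeR adjusted p = 0.000557), a call that was lost with replicates 1 and 2 alone (0.0581) and with replicates 3 and 4 alone (0.0685).

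Genes with the most similar course over the 16 libraries were ranked by the root mean square difference of log2 CPM, each gene centred on its own mean, among 9856 genes with at least 5 CPM in their highest group. Nearest to Cxcl2 was Pdgfb, a growth factor subunit, at 0.40, then Tm4sf1 at 0.58 and Dok7 at 0.60, where Cxcl2 itself varied by 2.74. Nearest to Cxcl10 were Iigp1 at 0.40 and Gbp3 at 0.45, both interferon-inducible GTPases, and Ifi211 at 0.53, against its own 2.50. Cxcl9 lay nearest to Ube2l6 at 0.48, which encodes the conjugating enzyme of ISG15, Zbp1 at 0.50, a sensor of Z-form nucleic acids, and Slfn2 at 0.51. Cxcl3 lay nearest to Malt1 at 0.39, a protease of the NF-kB path, Iglon5 at 0.40 and Il1a at 0.41, which encodes interleukin-1 alpha. For Cxcl3 and Cxcl9, the added prior count of 2 shrinks differences at their low levels.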

How the data were processed

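Polyadenylated RNA of 16 libraries was sequenced. The authors deposited unnormalized counts for each gene, made with STAR on GRCm39 per the submitters' processing notes (program version and annotation release not stated there). File names mark them as reverse-strand counts. Totals were 46154875 to 81995629 counts per library, which limit precision for members with few counts. Symbols came from GENCODE M21 for 52083 of 55359 identifiers, and the others held 0.449% of counts. Intervals and floors (3 counts over a group) cover counting error only.

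Groups followed the labels. Genes passing filterByExpr by group were fitted in 1 edgeR 4.0.16 quasi-likelihood model (R 4.3.3) of all 16 libraries with TMM scaling and robust dispersion, giving a common biological coefficient of variation of 0.149. Tests were two-sided at an adjusted p under 0.05 over 17190 genes. Standard errors are the log2 fold change over the root of F. Within-group libraries differed by more than sampling noise (chi-square per degree of freedom at least 5.58). The ratio of Cxcl2 to Cxcl10 was compared by exact permutation. Same-numbered replicates did not deviate together (correlations -0.15 to 0.15), so the number was not used as a block in the main model.

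The members, gene lists and tests were chosen with earlier results of these data known. Besides the members, ligands and receptors, the naming rule took from each path list up to 4 genes with the smallest p at day 5 and up to 2 at day 1, and the 3 nearest genes of each tested member. Alternatives were DESeq2 1.42.0, RLE size factors, other filters, fits on fewer libraries, the replicate block and each library left out. The tests of the ratio, and leaving libraries out of them, were added after seeing the data. Figures used matplotlib 3.10.9. Protein sequences were not used here.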

Additional observations from a re-analysis of the deposited data

Results flagged for a closer look

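The exposure effect on Cxcl2 differed between days by 5.94 on the log2 scale in a test of the difference itself. Within single groups of 4 libraries, 7 of 24 groups tested held a library whose gap to the nearest other exceeded the 95% critical value of Dixon's ratio, where chance flags about 1 in 20. For Cxcl10 in exposed day 1 cells the lowest library, replicate 3, had 13.2 CPM beside 3 libraries at 19.3 CPM. The other 6 were single libraries of very few counts. Cxcl11 in exposed day 1 cells had 0.0823 CPM in replicate 4 and 0 in the others, and in uninfected day 1 cells 0.0181 CPM in replicate 3. Cxcl3 had 0.0181 CPM in 1 uninfected day 1 library and 0.0127 CPM in 1 uninfected day 5 library. In uninfected day 5 cells Cxcl1 had 0.0381 CPM in replicate 1 and Cxcl16 had 0.0766 CPM in replicate 4, with 0 in the others. Such flags arise whenever a single library holds all the counts of a group.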

How the results depend on the processing

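Across 25 alternatives, the counts of called members were 2 at day 1, 4 at day 5, 1 for the change between days, 4 within exposed cells and 0 within uninfected cells, except as follows. A filter of at least 1 CPM in 4 libraries left Cxcl3 and Cxcl9 untested and gave 1, 2, 1, 2 and 0. At day 1 replicates 1 and 2 alone gave 1, and replicates 3 and 4 alone gave 1. DESeq2 gave 2 for the change between days. With any 1 library left out the counts stayed at 2, 4, 1, 4 and 0, and with the replicate block, where the number is not known to pair cultures, at the same values. In the fit on day 1 libraries alone the 2 called were Cxcl2 and Cxcl10, and Cxcl9 was not tested. Directions reversed for differences that were not called: the change of the Cxcl9 effect between days was -2.75 with replicates 3 and 4 alone, and within uninfected cells Cxcl9 was -1.08 with replicates 1 and 2 alone and Cxcl10 -0.16 with replicates 3 and 4 alone. Of all genes, fits on the comparison's libraries alone called 3650 higher and 3371 lower at day 1 against 2297 and 1800, and 3386 and 3038 within uninfected cells against 1852 and 1532. Replicates 1 and 2 alone called 813 and 406 at day 1, 1481 and 1675 for the change between days (2826 and 3347 with all libraries) and 422 and 187 within uninfected cells. Replicates 3 and 4 alone called 568 and 156, 811 and 1083, and 386 and 195, and 2467 and 2480 within exposed cells (4406 and 4335 with all libraries). Leaving out 1 library gave as few as 1227 higher and 881 lower within uninfected cells. The cause was not tested. With 1 library left out, the ratio of Cxcl2 to Cxcl10 kept its direction in all 3 comparisons, where the smallest p possible is 0.0571. Depth limits Cxcl1, Cxcl11 and Cxcl16, which held at most 19 counts in a group.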
